A study of Mus musculus with 6 samples.

Results

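The 10 genes described here encode isoforms of 5 enzyme families of glycolysis: the aldolases Aldoa and Aldoc, the phosphoglycerate mutase Pgam1, the enolases Eno1, Eno2 and Eno3, the pyruvate kinases Pkm and Pklr, and the lactate dehydrogenases Ldha and Ldhb. They were taken by gene symbol, and all 10 were found, each in its own row, among 22564 genes measured. RNA-seq was performed on inguinal white adipose tissue (iWAT), a fat depot under the skin of the groin. The cold group was 3 samples from C57BL/6 mice kept at 4 °C for 7 days, and the thermoneutral group was 3 samples from C57BL/6 mice kept at 30 °C for 7 days. The mice were male and 2 months old. The sample labels name adipocytes as the source and the whole fat pad as the tissue, and they leave unsaid if 1 mouse or a pool gave each sample, so the p-values measure only the spread between these samples. The purpose of the comparison was to find genes that change when beige adipocytes are activated in iWAT.

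Aldolase cleaves fructose bisphosphate into triose phosphates, phosphoglycerate mutase moves the phosphate within phosphoglycerate, enolase removes water to give phosphoenolpyruvate, pyruvate kinase makes pyruvate and ATP from it, and lactate dehydrogenase interconverts pyruvate and lactate. Most of these families have a form found in nearly all tissues and others enriched in muscle, brain or liver, so the isoform present in a tissue sample also carries information on the cells in it. Beige adipocytes burn fuel for heat through the uncoupling protein UCP1, and they take up glucose and lactate as well as fatty acids.

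The isoforms of a family are similar in coding sequence but far from identical, which bears on whether fragments can be assigned to one of them. Over aligned coding bases, Ldhb and Ldha were 73.0% identical, Eno3 and Eno1 76.7%, Eno3 and Eno2 77.8%, Eno2 and Eno1 75.1%, Aldoc and Aldoa 75.9%, and Pklr and Pkm 71.5%. The longest run of identical bases in any of these pairs was 31 bases, between Pklr and Pkm. For the 2 families in which the isoforms' percent shares differed most between samples, matching coding stretches of 60 bases, each inside 1 exon, are given 5′ to 3′ on the coding strand (GENCODE, GRCm38). Capitals mark positions at which the isoforms shown are not all the same, 17 of 60 positions for lactate dehydrogenase and 24 of 60 for enolase. The stretches lie at chr6:142495602-142495661 (minus strand) for Ldhb, chr7:46850965-46851024 (plus) for Ldha, chr11:70660999-70661058 (plus) for Eno3, chr4:150246572-150246631 (plus) for Eno1 and chr6:124763863-124763922 (minus) for Eno2.
Ldhb: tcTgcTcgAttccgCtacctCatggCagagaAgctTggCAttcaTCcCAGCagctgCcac
Ldha: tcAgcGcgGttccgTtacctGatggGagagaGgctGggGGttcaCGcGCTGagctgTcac
Eno3: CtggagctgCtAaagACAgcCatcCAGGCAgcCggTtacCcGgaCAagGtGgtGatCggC
Eno1: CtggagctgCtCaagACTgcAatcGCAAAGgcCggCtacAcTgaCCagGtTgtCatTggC
Eno2: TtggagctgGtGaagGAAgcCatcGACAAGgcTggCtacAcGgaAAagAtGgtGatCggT

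Each gene had 2 kinds of value in each sample. Scaled counts are fragment counts that had been divided by a factor for each sample, and FPKM is fragments scaled to transcript length and library size, which allows levels to be compared between genes of different length. The scaled counts of a library totalled 17434977 to 17588754 in cold and 19276924 to 19603526 at thermoneutrality, and rest on about 15261710 to 16936692 fragments per cold library and 18893388 to 23635792 per thermoneutral library. The difference was tested by limma, using log2(scaled count + 1), in the 11650 genes whose FPKM reached 1 in 3 or more samples, and p-values were adjusted over all of them by the Benjamini-Hochberg method. A gene was called at an adjusted p under 0.05. On this scale the median gene had a log2 fold change of -0.54, so changes below are best read against that value, and subtracting from each sample the level of its median gene (median centring) moved it to -0.01.

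The samples fitted their label as fat. All 8 markers of thermogenic adipocytes in the list used were higher in cold, with a summed FPKM of 8417 to 12850 in cold and of 256 to 425 in thermoneutral samples, and the adipocyte markers, dominated by the fatty acid carrier Fabp4, summed to 27310 to 39066 FPKM in cold and 15889 to 30130 in thermoneutral samples. Of these 8 markers none was called higher, and the adipokines Adipoq (1525 to 1737 FPKM in cold, 2356 to 4093 in thermoneutral) and Lep (23.3 to 27.1 in cold, 82.7 to 320 in thermoneutral) were lower. A library in each group stood apart. Cold replicate 2 held skeletal muscle transcripts: the 22 muscle markers, with all 22 at their highest there, summed to 11170 FPKM, while cold replicates 1 and 3 had 170 and 135 FPKM and thermoneutral samples 270 to 599. Lymphocyte markers were also highest there, at 60.7 FPKM. Thermoneutral replicate 1 held epithelial markers at 848 FPKM, against at most 2.55 in any other sample, and had the lowest adipocyte sum, 15889 FPKM. The macrophage list (9 of 9 tested) and the preadipocyte and fibroblast list (9 of 9) were lower in cold, and the erythroid list (5 of 5) and the liver list (5 of 5) were higher. These calls were made without median centring, where 35.2% of all tested genes were lower and 6.24% higher. With it, 5.35% were lower and 10.3% higher. The part of any of these cell types in the differences below was not tested, and in whole tissue a smaller number of cells of a type cannot be told apart from less RNA per cell.

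The dominant isoform of every family was more abundant in cold iWAT. Of the 8 members that passed the filter on low values, 6 were higher in cold (Aldoa, Pgam1, Eno1, Pkm, Ldha and Ldhb), against 6.24% of all tested genes, 1 was lower (Eno2), against 35.2%, and Eno3 was not called. Aldoc and Pklr did not pass the filter and were not tested. The cold and thermoneutral ranges of the same 6 members were apart with cold higher, as were those of 9.09% of all tested genes, and those of Eno2 were apart with cold lower, as were 52.1%. With each sample centred on its median gene, the same 6 were still called higher, against 10.3% of all genes, and none was called lower, against 5.35%. The median log2 fold change of the 8 tested members was 1.73. Together the 10 members took 1.54%, 1.26% and 1.22% of all scaled counts in cold replicates 1 to 3, and 0.252%, 0.453% and 0.438% in thermoneutral replicates 1 to 3.

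**Figure D1:**
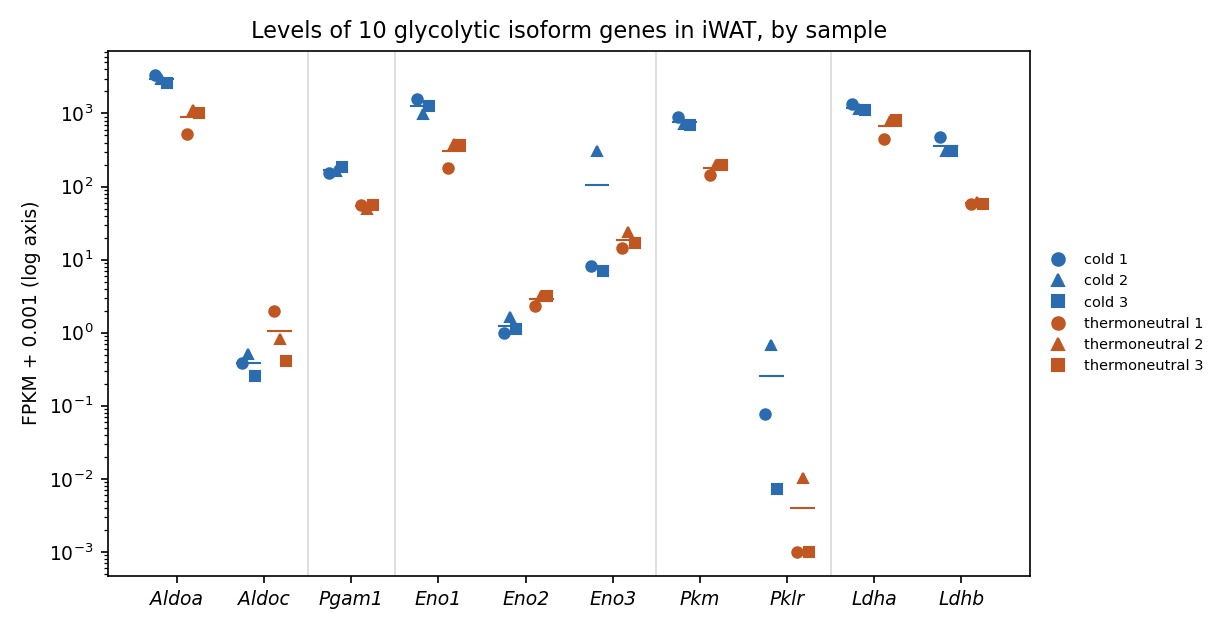
Level of each of the 10 genes in each of the 6 iWAT samples, as FPKM plus 0.001 on a log axis, with cold samples in blue left of thermoneutral samples in orange, symbols for replicates 1 to 3 and a bar at the arithmetic mean of the 3. Aldoa, Pgam1, Eno1, Pkm, Ldha and Ldhb are apart between the groups with cold higher, Eno2 is apart with cold lower, and Eno3 of cold replicate 2, at 302 FPKM, stands far above the other 5 samples.

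Aldoa (ENSMUSG00000030695, chr7:126795234-126800751, minus strand), the aldolase of muscle and most other tissues, was the most abundant member in both groups. Its scaled counts were 101291, 85558 and 75436 in cold replicates 1 to 3, and 15489, 32441 and 30174 in thermoneutral replicates 1 to 3. All cold samples lay above all thermoneutral samples, and thermoneutral replicate 1, the library with epithelial transcripts and the lowest adipocyte marker sum, was the lowest. The log2 fold change was 1.81 (SE 0.31, limma adjusted p = 0.010), a ratio of means of 3.36, and it was 1.47 without thermoneutral replicate 1. In rank of FPKM within a sample, Aldoa was between 11th and 15th of all genes in cold, and between 45th and 137th in thermoneutral samples. The gene overlaps Fam57b on the other strand, and Fam57b stood at 1.25% to 1.66% of the Aldoa scaled count in cold and at 1.40% to 1.63% in thermoneutral samples. Whether fragments were counted by strand is not given in the sources used here, so the Fam57b value (log2 fold change 1.79, limma adjusted p = 0.014) cannot be told apart from Aldoa fragments.

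Aldoc (ENSMUSG00000017390, chr11:78322968-78327781, plus strand), the aldolase of brain, was near the limit of detection. Its scaled counts were 18.3, 10.5 and 10.4 in cold samples, from 16, 10 and 10 fragments, and 75.5, 8.71 and 4.98 in thermoneutral samples, from 74, 9 and 6 fragments. The groups overlapped, and thermoneutral replicate 1 held most of the fragments of its group. The FPKM values did not follow the counts closely, with 0.250 FPKM for 10.4 scaled counts in cold replicate 3 and 0.811 FPKM for 8.71 in thermoneutral replicate 2. Aldoc made up 0.00973% to 0.0173% of aldolase FPKM in cold and 0.0398% to 0.378% in thermoneutral samples.

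Pgam1 (ENSMUSG00000011752, chr19:41911871-41918664, plus strand), the phosphoglycerate mutase of tissues other than muscle, had scaled counts of 5790, 6216 and 7038 in cold and 2077, 1823 and 2130 in thermoneutral samples. The spread within each group was small beside the difference between them. This was a log2 fold change of 1.66 (SE 0.16, limma adjusted p = 0.0031), a ratio of means of 3.16. Unlike Aldoa, Pgam1 was not lowest in thermoneutral replicate 1, and its log2 fold change without that sample was 1.68. The muscle form Pgam2 behaved otherwise, with scaled counts of 4.57, 2483 and 1.04 in cold and 53.1, 74.5 and 25.7 in thermoneutral samples, and its log2 fold change of -0.65 did not pass (limma adjusted p = 0.84). Without cold replicate 2, Pgam2 was called lower in cold (-3.83, limma adjusted p = 0.020).

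Eno1 (ENSMUSG00000063524, chr4:150236721-150248879, plus strand), the enolase of nearly all tissues, had scaled counts of 60379, 40272 and 51822 in cold and 7538, 15935 and 15384 in thermoneutral samples. The groups were apart, with the lowest values in cold replicate 2 and thermoneutral replicate 1. Eno1 had a log2 fold change of 2.03 (SE 0.34, limma adjusted p = 0.0094), a ratio of means of 3.92, and it was 1.68 without thermoneutral replicate 1 and 2.19 without cold replicate 2. Within the samples Eno1 ranked 38th to 62nd among all genes by FPKM in cold and 189th to 455th in thermoneutral samples. The Eno1-like gene Gm5506 held at most 0.122% of the Eno1 scaled count in any sample.

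Eno2 (ENSMUSG00000004267, chr6:124760053-124769673, minus strand), the enolase of neurons, was the only member called lower in cold. Its scaled counts were 49.1, 66.4 and 49.8 in cold and 87.7, 119 and 140 in thermoneutral samples, and its FPKM was 0.979 to 1.65 in cold and 2.32 to 3.18 in thermoneutral samples. No overlap between groups was seen. The log2 fold change was -1.04 (SE 0.23, limma adjusted p = 0.018). After median centring it was -0.51 and was not called (limma adjusted p = 0.15), with the median gene at -0.01. The call was also lost without cold replicate 3 (-0.98), thermoneutral replicate 2 (-1.01) or thermoneutral replicate 3 (-0.89), with limma adjusted p-values of 0.061 to 0.066. Of the nerve and Schwann cell markers, 7 were tested. Of these, 1 was higher and 2 were lower in cold, against 6.24% and 35.2% of all tested genes. The summed FPKM of the marker list was 136 to 149 in cold and 115 to 296 in thermoneutral samples.

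Eno3 (ENSMUSG00000060600, chr11:70657202-70662513, plus strand), the enolase of skeletal muscle and heart, differed more between samples of the same group, as a ratio of scaled counts, than any other tested member. Its scaled counts were 179, 8745 and 190 in cold and 389, 595 and 368 in thermoneutral samples. Cold replicate 2 was the highest of the 6 samples, and the other cold samples were the lowest. With all samples the log2 fold change was 0.60 with an SE of 1.46 and did not pass (limma adjusted p = 0.74). Without cold replicate 2 the direction turned, to -1.25, and Eno3 was called lower in cold (limma adjusted p = 0.032). In that comparison 2 of the 8 tested members, Eno2 and Eno3, were lower, against 22.6% of all tested genes. With median centring and without cold replicate 2, a setting chosen after seeing the data, the log2 fold change of Eno3 was -0.66 and was not called (limma adjusted p = 0.18).

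Among the tested members, Eno3 alone was far above the rest of its group in cold replicate 2, the library with muscle transcripts. The muscle marker sum of 11170 FPKM stood beside an Eno3 FPKM of 302 in that library, while the remaining cold samples had marker sums of 170 and 135 FPKM beside Eno3 at 8.26 and 6.92 FPKM. In thermoneutral replicates 1 to 3, sums of 300, 599 and 270 FPKM stood beside Eno3 at 14.6, 24.1 and 17.0 FPKM. Eno3 and the marker sum were therefore both lowest in cold replicates 1 and 3 and intermediate in all thermoneutral samples. Of the 22 markers, 16 had lower scaled counts in cold replicates 1 and 3 than in any thermoneutral sample, among them Acta1, the actin of skeletal muscle, with 40274 in cold replicate 2, 109 and 63.4 in cold replicates 1 and 3, and 959 to 2230 in the thermoneutral group. The oxygen carrier Mb ran the other way, with 705 and 408 in cold replicates 1 and 3 and 10.6 to 39.8 in the thermoneutral group. The myosin light chain Myl1, with 101 and 82.0 FPKM, made up most of the marker sum in cold replicates 1 and 3. Of other muscle-enriched glycolytic genes, Pfkm, the muscle phosphofructokinase, which was singled out after its values were seen, had scaled counts of 1068, 6438 and 1073 in cold and 1262, 826 and 588 in thermoneutral samples. Aldoa, Pgam1, Pkm and Ldha in cold replicate 2 lay between the other cold samples, Eno1 and Ldhb there were the lowest of the 3, and Eno2 was the highest. How much muscle contributed to any member was not tested.

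**Figure D2:**
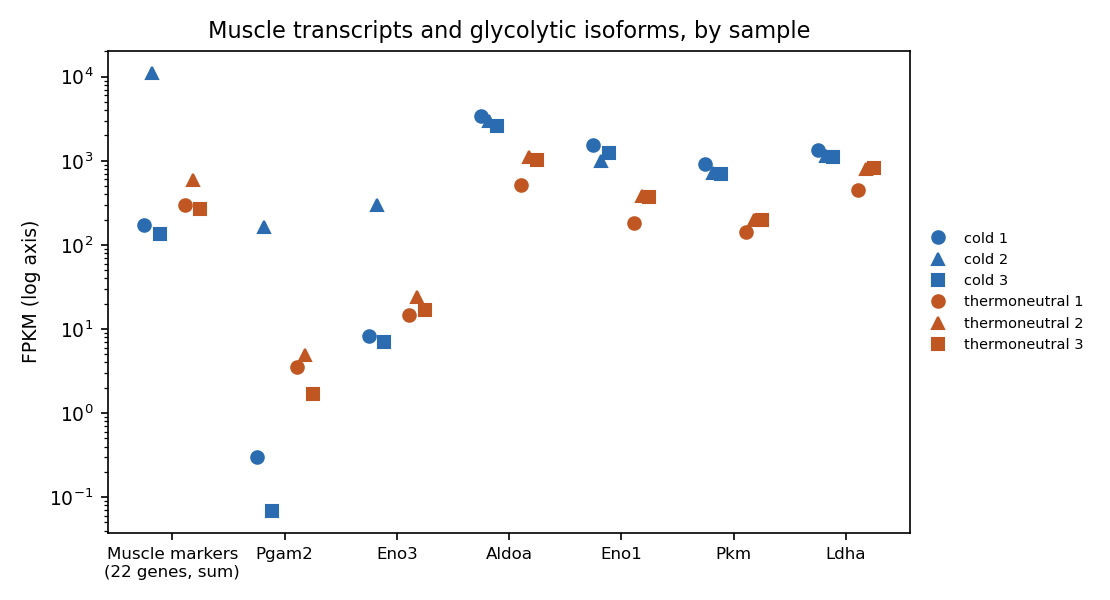
Summed FPKM of the 22 skeletal muscle markers and FPKM of Pgam2, Eno3, Aldoa, Eno1, Pkm and Ldha in each sample, on a log axis, with cold samples in blue left of thermoneutral samples in orange. Cold replicate 2 (blue triangle) is far above all other samples for the muscle markers, Pgam2 and Eno3, and within or below the range of the other cold samples for Aldoa, Eno1, Pkm and Ldha.

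Pkm (ENSMUSG00000032294, chr9:59656368-59679375, plus strand) encodes the pyruvate kinase of muscle and most other tissues, and its alternative splicing gives the M1 and M2 forms, which values per gene do not separate. Its scaled counts were 46276, 36126 and 35747 in cold and 7320, 10074 and 10173 in thermoneutral samples. The groups were wide apart. Pkm had a log2 fold change of 2.11 (SE 0.21, limma adjusted p = 0.0031), a ratio of means of 4.29. The estimate changed little without cold replicate 2 (2.16) and without thermoneutral replicate 1 (1.95).

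Pklr (ENSMUSG00000041237, chr3:89136142-89160196, plus strand), the pyruvate kinase of liver and red cells, was at or near 0. The scaled counts were 4.57, 3.15 and 0.366 in cold and 0, 0.539 and 0 in thermoneutral samples, which is at most 4 fragments in any sample. A count of 0 means that no fragment was counted, while the expected number could still be as high as about 3. The gene overlaps Hcn3 on the other strand, and in GENCODE M21 it ends at 89146784, before the end given here. The FPKM values did not follow the counts, with 0.671 FPKM for 3.15 scaled counts in cold replicate 2 and 0.0772 FPKM for 4.57 in cold replicate 1. No fold is given, and Pkm made up at least 99.9% of pyruvate kinase FPKM in every sample.

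Ldha (ENSMUSG00000063229, chr7:46841475-46855627, plus strand) encodes the subunit of lactate dehydrogenase that prevails in skeletal muscle. Its scaled counts were 43372, 36345 and 35815 in cold and 14205, 25406 and 26049 in thermoneutral samples. The cold samples were all higher, and the ratio of means was the smallest of the members called higher. The difference amounted to a log2 fold change of 0.86 (SE 0.27, limma adjusted p = 0.044), a ratio of means of 1.76. This call was among the least stable: it was kept without thermoneutral replicate 1 (0.58, limma adjusted p = 0.026) and after median centring (1.40, limma adjusted p = 0.019), and lost when any of the other 5 samples was left out. With the replicate block the adjusted p was 0.087.

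Ldhb (ENSMUSG00000030246, chr6:142490249-142507957, minus strand) encodes the subunit that prevails in heart and is known for favouring the oxidation of lactate to pyruvate. It had the largest log2 fold change of the tested members, with scaled counts of 11002, 7743 and 7760 in cold and 1473, 1551 and 1483 in thermoneutral samples. The thermoneutral samples were close to each other, and the lowest cold sample was far above them. The log2 fold change was 2.54 (SE 0.19, limma adjusted p = 0.0014), a ratio of means of 5.88, and it was 2.62 without cold replicate 2 and 2.52 without thermoneutral replicate 1. By FPKM Ldhb ranked 208th to 260th among all genes in cold and 1349th to 1463rd in thermoneutral samples.

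**Figure D3:**
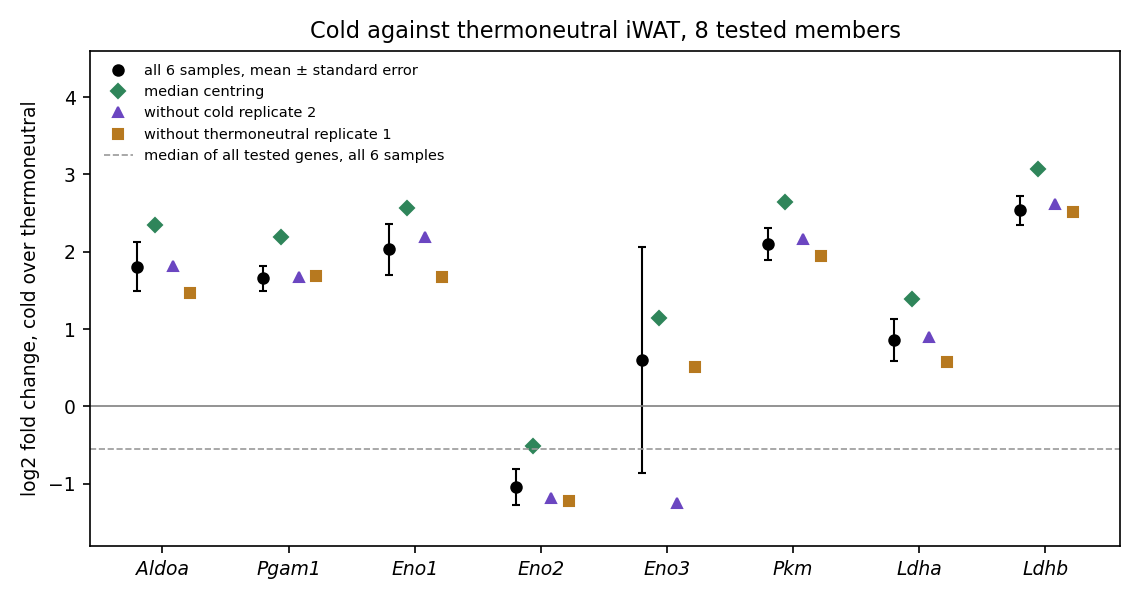
Log2 fold change, cold over thermoneutral, of the 8 tested members with all 6 samples (black, bars are the standard error from limma), after median centring (green), without cold replicate 2 (purple) and without thermoneutral replicate 1 (brown), with the median of all tested genes (-0.54) as a dashed line. The 4 estimates stay above 0 for Aldoa, Pgam1, Eno1, Pkm, Ldha and Ldhb, stay below 0 for Eno2, and change sign without cold replicate 2 for Eno3.

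The balance within the lactate dehydrogenase family was different in cold. Ldhb made up 25.8%, 21.02% and 21.4% of the family's FPKM in cold samples, and 11.5%, 7.21% and 6.66% in thermoneutral samples. The mean share was 22.7% ± 2.68 in cold and 8.45% ± 2.63 in thermoneutral samples (SD, n = 3 each), and the groups did not overlap. The log2 ratio of Ldhb to Ldha (FPKM plus 0.1), which does not depend on scaling between libraries, was -1.77 ± 0.22 in cold and -3.48 ± 0.47 in thermoneutral samples (SD, n = 3 each), a difference of 1.71 (exact permutation test, two-sided, p = 0.1, the smallest p that 3 against 3 allows, 0.2 adjusted over the 6 ratios tested). The difference was 1.78 without cold replicate 2 and 1.97 without thermoneutral replicate 1. Ldha still exceeded Ldhb in every sample.

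Within the enolases, Eno1 made up 99.4%, 76.4% and 99.4% of FPKM in cold and 91.5%, 93.4% and 94.8% in thermoneutral samples. The Eno3 share was 0.526%, 23.5% and 0.550% in cold and 7.38%, 5.87% and 4.37% in thermoneutral samples, so that the cold samples were on both sides of the thermoneutral range. The log2 ratio of Eno3 to Eno1 differed by -1.56 between cold and thermoneutral samples (exact permutation test, two-sided, p = 0.4, 0.4 adjusted), and by -3.50 without cold replicate 2, where 2 against 3 samples allow no p below 0.2. The Eno2 share was 0.0624% to 0.128% in cold and 0.762% to 1.17% in thermoneutral samples, and the log2 ratio of Eno2 to Eno1 differed by -3.24 (exact permutation test, p = 0.1, 0.2 adjusted). The log2 ratio of Eno3 to Eno2 differed by 1.68 with all samples (exact permutation test, p = 0.4, 0.4 adjusted) and by 0.12 without cold replicate 2.

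The other ratios involved isoforms close to 0. The log2 ratio of Aldoc to Aldoa was lower in every cold sample than in any thermoneutral sample, by 2.89 on average (difference -2.89, exact permutation test, p = 0.1, 0.2 adjusted), although Aldoc itself overlapped between the groups. The log2 ratio of Pklr to Pkm differed by -0.86 (exact permutation test, p = 0.4, 0.4 adjusted), with a direction set by the pseudocount. Summed over isoforms, FPKM was higher in all cold samples in each of the 4 families with several members. The aldolase sum averaged 2986 ± 416 in cold and 882 ± 314 in thermoneutral samples, the enolase sum 1371 ± 173 in cold and 332 ± 117 in thermoneutral, the pyruvate kinase sum 771 ± 116 in cold and 180 ± 31.5 in thermoneutral, and the lactate dehydrogenase sum 1561 ± 225 in cold and 741 ± 208 in thermoneutral samples (SD, n = 3 each). The log2 differences were 1.82, 2.11, 2.11 and 1.11 in that order, each with p = 0.1 in the exact permutation test (0.1 adjusted over the 4 sums).

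**Figure D4:**
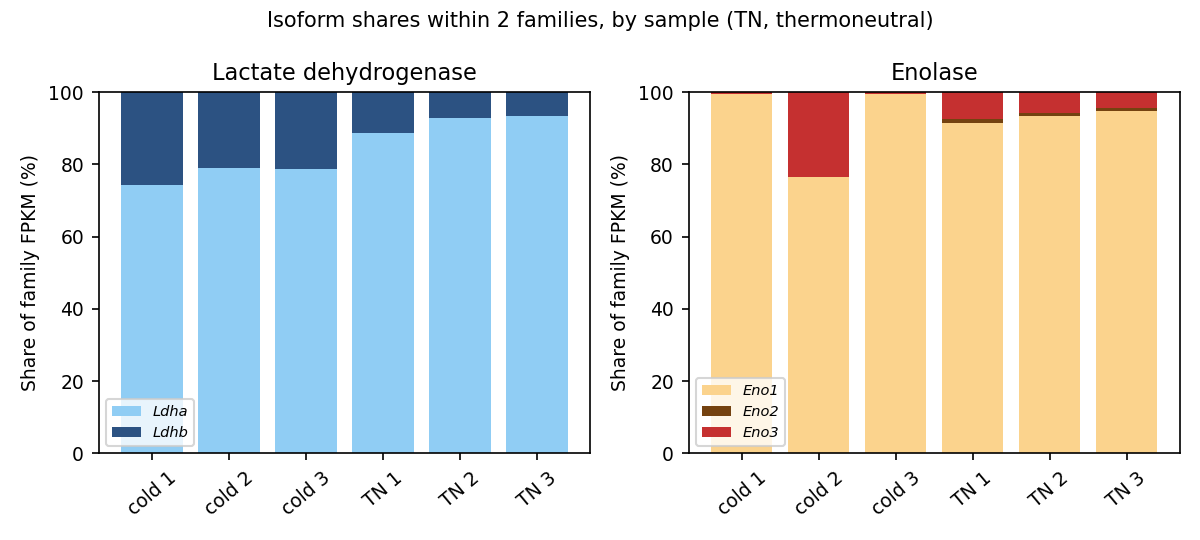
Share of each isoform in the summed FPKM of its family, in percent, for lactate dehydrogenase and enolase in each sample, cold samples left of thermoneutral (TN) samples. Ldhb takes 21.02% to 25.8% in cold and 6.66% to 11.5% in thermoneutral samples, and Eno3 takes 23.5% in cold replicate 2 alone.

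The order of the members by mean FPKM differed between the groups only in that Eno1 and Ldha changed places. In cold it was Aldoa (2985 ± 416), Eno1 (1264 ± 290), Ldha (1202 ± 129), Pkm (770 ± 116), Ldhb (359 ± 96.5), Pgam1 (169 ± 17.2), Eno3 (106 ± 170), Eno2 (1.24 ± 0.35), Aldoc (0.384 ± 0.132) and Pklr (0.252 ± 0.365). In thermoneutral samples it was Aldoa (881 ± 314), Ldha (682 ± 207), Eno1 (311 ± 113), Pkm (180 ± 31.5), Ldhb (59.0 ± 2.24), Pgam1 (53.5 ± 4.37), Eno3 (18.5 ± 4.93), Eno2 (2.87 ± 0.48), Aldoc (1.07 ± 0.82) and Pklr (0.00304 ± 0.00526). Errors are SD with n = 3. The cold mean of Pklr rests mostly on cold replicate 2, at 0.671 FPKM from about 3 fragments. Neighbours whose samples overlapped were Eno1 and Ldha, Pgam1 and Eno3, and Aldoc and Pklr in cold, and Aldoa and Ldha, and Eno1 and Pkm, in thermoneutral samples.

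Across the 6 samples the profiles of Aldoa, Eno1 and Pkm resembled each other most among the members. Likeness was measured as the root mean square distance between log2 profiles after subtraction of each gene's mean, and it is a description of 6 libraries that share a scaling and a group difference. The distance was 0.19 between Aldoa and Eno1, 0.23 between Eno1 and Pkm, and 0.24 between Aldoa and Pkm, against a median of 1.38 from Eno1 to all tested genes. Over all tested genes, those nearest to Eno1 were Tkt (0.13), Acadm (0.14) and Pfkl (0.14). Those nearest to Pkm were Pdhb (0.083), Rbp7 (0.089) and Mpc1 (0.090), and those nearest to Ldhb were Acadvl (0.081), Adck3 (0.11) and Acaa2 (0.11). Eno3 was nearest to Tpm1 (0.098), Ldb3 (0.21) and Pdlim3 (0.35), and Eno2 to Marcks (0.028), Trp53bp2 (0.043) and Pip4k2a (0.047). The median distance to all tested genes was 1.37 from Pkm, 1.58 from Ldhb, 1.95 from Eno3 and only 0.46 from Eno2.

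Several other enzymes of glycolysis were higher in cold as well. Of 20 genes, 14 were tested, and 8 were higher and 1 lower in cold, against 6.24% and 35.2% of all tested genes. The median log2 fold change of the 14 was 0.97. Leaving out cold replicate 2 made the number lower 2, and leaving out cold replicate 3 or thermoneutral replicate 2 made it 0. The named examples were Pgk1, phosphoglycerate kinase, with a log2 fold change of 2.06 (SE 0.15), Gpi1, glucose phosphate isomerase, with 1.81 (SE 0.18), Gapdh, glyceraldehyde phosphate dehydrogenase, with 2.24 (SE 0.28), and Pfkl, the liver-type phosphofructokinase, with 2.30 (SE 0.35). Their limma adjusted p-values were 0.0014 to 0.0078. Gpi1 had scaled counts of 24401, 17824 and 19585 in cold and 5662, 5603 and 6163 in thermoneutral samples. Of isoforms outside the members, Eno4 and Ldhc had at most 7.74 scaled counts in any sample, and the D-lactate dehydrogenase Ldhd had a log2 fold change of 0.71 (SE 0.23, limma adjusted p = 0.049), a call lost without cold replicate 2 (0.76, limma adjusted p = 0.090).

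Genes that act on pyruvate and lactate also moved mostly upward. Of 21 genes, 20 were tested, and 13 were higher and 2 lower in cold, against 6.24% and 35.2% of all tested genes. The median log2 fold change of the 20 was 1.29. Of the 2 list genes lower, 1 was left when cold replicate 1 or 3, or thermoneutral replicate 2 or 3, was omitted. Pdk4, a kinase that inhibits pyruvate dehydrogenase, had the largest change of those named, with scaled counts of 14443, 22942 and 28551 in cold and 917, 1046 and 1211 in thermoneutral samples, which is a log2 fold change of 4.33 (SE 0.28, limma adjusted p = 0.0011). Pdk2, a kinase of the same family, had a log2 fold change of 1.69 (SE 0.15), Dlat, a subunit of pyruvate dehydrogenase, 1.71 (SE 0.15), and Mpc1, a subunit of the mitochondrial pyruvate carrier, 2.07 (SE 0.19), with limma adjusted p-values of 0.0020 to 0.0024. Of the gluconeogenic list, 4 of 6 genes were tested and 2 were higher, against 6.24% of all tested genes. They were Pck1, with a log2 fold change of 1.17 (SE 0.26, limma adjusted p = 0.018), and Fbp2, with 3.51 (SE 1.00, limma adjusted p = 0.034). Fbp2 had scaled counts of 379, 324 and 294 in cold and 166, 13.5 and 9.12 in thermoneutral samples, and its call was lost without cold replicate 2 (log2 fold change 3.52, limma adjusted p = 0.071). Of the gluconeogenic list, 0 genes were called higher when cold replicate 3 was omitted, and 1 when any sample other than it or thermoneutral replicate 1 was omitted.

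Transcription factors and coactivators of glycolytic genes were called in both directions. Of 15 genes, 13 were tested, and 3 were higher and 2 lower in cold, against 6.24% and 35.2% of all tested genes. The median log2 fold change of the 13 was -0.38, with -0.54 over all tested genes. Ppargc1b, a coactivator, had a log2 fold change of 1.67 (SE 0.21, limma adjusted p = 0.0056) and Esrra, the estrogen-related receptor alpha, 1.20 (SE 0.17, limma adjusted p = 0.0072). Arnt, the partner of the hypoxia-inducible factors, had -0.87 (SE 0.19) and Sp1 had -0.94 (SE 0.21), both with a limma adjusted p of 0.018, and neither was called after median centring (-0.34 and -0.41). The number lower was 5 without thermoneutral replicate 1 and 0 without thermoneutral replicate 2 or 3. Of the factors known to regulate splicing of Pkm, 5 of 6 were tested and all 5 were lower: the largest was Ptbp1 at -1.06 (SE 0.16, limma adjusted p = 0.0080), followed by Hnrnpa1 at -0.90, Srsf3 at -0.79 and Rbm4 at -0.75. After median centring none of the 5 was called, 3 were without cold replicate 2 and 2 without thermoneutral replicate 2 or 3, and 35.2% of all tested genes were lower before it.

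Ldhb, Ldha and Eno1 were each higher in cold, by different amounts. The 180 bases before a RefSeq start site of each are given 5′ to 3′ on the strand of the gene (GRCm38.p6). The site used was the first of 3 listed for Eno1, the first of 2 for Ldha and the single one for Ldhb. Whether these bases bear on the changes was not tested. All 10 members were found in the promoter table. Capitals mark matches on either strand to ACGTG or GCGTG, the core of the hypoxia response element, and to AAGGTCA, the site of estrogen-related receptors. The stretches are chr6:142507958-142508137 (minus strand) for Ldhb, chr7:46845624-46845803 (plus) for Ldha and chr4:150236528-150236707 (plus) for Eno1.
Ldhb: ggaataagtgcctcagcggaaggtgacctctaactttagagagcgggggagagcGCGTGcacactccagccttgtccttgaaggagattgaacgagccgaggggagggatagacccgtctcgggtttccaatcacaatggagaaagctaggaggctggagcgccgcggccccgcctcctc
Ldha: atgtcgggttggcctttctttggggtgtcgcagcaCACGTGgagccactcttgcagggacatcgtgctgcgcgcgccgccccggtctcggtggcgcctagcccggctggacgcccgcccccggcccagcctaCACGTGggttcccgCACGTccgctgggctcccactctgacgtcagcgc
Eno1: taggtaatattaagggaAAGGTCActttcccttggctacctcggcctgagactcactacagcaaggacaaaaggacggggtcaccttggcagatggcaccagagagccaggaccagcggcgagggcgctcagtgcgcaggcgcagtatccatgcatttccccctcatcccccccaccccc

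The Ldha stretch held 5 matches to ACGTG, 4 of which come from 2 copies of the palindrome CACGTG, in which a match on each strand overlaps the other. The Ldhb stretch held no ACGTG and 1 GCGTG, and the Eno1 stretch held neither and 1 AAGGTCA. These counts depend on the start site: the 180 bases before each of the other Eno1 sites held 2 GCGTG and no AAGGTCA, and those before the other Ldha site held 1 GCGTG and no ACGTG. In all 32851 start sites of the table, the same 180 bases held ACGTG in 12.8%, GCGTG in 23.2%, CACGTG in 4.81% and AAGGTCA in 2.81%. Of the 18 start sites listed for the 10 members, 4 held ACGTG, 8 held GCGTG, 1 held CACGTG and 1 held AAGGTCA. Stretches of the same gene can overlap: the other Eno1 sites share the same 2 GCGTG matches, which count at each site. A match describes the letters and not a bound site.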

How the data were processed

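RNA-seq of iWAT was analysed in 6 samples, matched to table columns by initial and replicate number. Per the study's methods, TruSeq libraries were sequenced on a NovaSeq instrument. The submitters' notes name Bowtie 0.12.2 and the builds mm8 and mm10 without roles. The deposited FPKM values were normalized by the authors to transcript length and library size. The second deposited value is a signal, a count scaled by the authors. Each sample had 1 step of which 94.4% to 95.1% of its low values were integer multiples to within 0.02. Low values were scaled counts under 20, with the very lowest left out. The rule did not hold for nearly all genes, so no count test was run. The highest row was used for 79 repeated symbols.

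Genes whose FPKM reached 1 in 3 or more samples were fitted with limma 3.58.1 in R 4.3.3, tested on simulated data first. Isoform ratios and sums used exact permutation tests (Python 3.11.15, SciPy 1.17.1). In all, 18 settings were run, 1 of them chosen after seeing the data. All members were named, with up to 4 called genes of each pathway list by smallest adjusted p, other isoforms (not all are reported here), and the 3 nearest profiles of 5 members. Members, lists and tests were chosen with earlier results of these data known. Coordinates were those of the table, and those of 8 members equal GENCODE M21. MeRIP-seq was not analysed here.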

Additional observations from a re-analysis of the deposited data

How the results depend on the processing

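Aldoa, Pgam1, Eno1, Pkm and Ldhb were called higher in cold in all 18 settings, with log2 fold changes of 1.47 to 2.41, 1.58 to 2.26, 1.68 to 2.78, 1.95 to 2.75 and 2.37 to 3.21 in that order. Ldha was called in 10 of 18 settings (0.58 to 1.49) and Eno2 in 11 of the 17 in which it was tested (-1.37 to -0.41). Ldha was lost with quantile normalization (0.82), without the filter (0.86), and with the replicate block (0.86, adjusted p = 0.087, which took the members called higher to 5). The block changed no other call of a member. Same-numbered samples deviated together with correlations of -0.00428, 0.0380 and 0.0659, and samples of unlike number with -0.0577 to 0.0104. All were small, so they do not settle whether the numbers pair the samples. Eno2 was lost with median centring (-0.51) and quantile normalization (-0.41). Eno3 turned to -1.25 (0.48 to 1.55 when any other sample was left out) without cold replicate 2, to -1.34 without that sample and thermoneutral replicate 1, and to -0.66 with median centring without cold replicate 2, the setting chosen after seeing the data. The members called lower were accordingly 0 with median centring, quantile normalization, an FPKM of at least 5 and median centring without cold replicate 2, 2 without cold replicate 2 and thermoneutral replicate 1, and 0 to 2 when 1 sample was left out. The log2 ratio of Pklr to Pkm turned to 0.89 with an FPKM pseudocount of 0.01.

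Over all tested genes, median centring gave 1200 higher and 623 lower against 727 and 4097, quantile normalization 704 lower, and median centring without cold replicate 2 270 lower. Leaving out 1 sample gave 373 to 933 higher and 1061 to 5134 lower. With median centring the genes called lower were 0 among other glycolysis enzymes, 1 among the fates of pyruvate and lactate, 0 among regulators and 0 among Pkm splicing factors. With 1 sample left out these counts were 0 to 2, 1 to 2, 0 to 5 and 2 to 5 in the same order, and 0 to 2 gluconeogenic genes were higher. With 3 samples a group, no exact permutation p can fall below 0.1, and Aldoc and Pklr, with at most 74 and 4 fragments, are too shallow for a comparison.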
